A study of Homo sapiens with 9 samples.

Results

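The MAGEA and CSAG genes described here are 10 cancer-testis antigens of human chromosome X, of 60683 gene IDs counted in HEK293T cells. They are MAGEA1, MAGEA2, MAGEA3, MAGEA4, MAGEA6, MAGEA10, MAGEA12, CSAG1, CSAG3 and MAGEC1, matched by symbol to Ensembl IDs. They were chosen because several were nearly absent from the counts of both reporter clones, so their difference from parental cells is described below and not tested. RNA was sequenced from 9 libraries of HEK293T, a long-established line from human embryonic kidney into which the large T antigen of SV40 was introduced, in 3 groups of 3 replicates. The parental group had no reporter constructs. Clone 37 and clone 15 were grown from single sorted cells after piggyBac transposition had placed both reporter constructs in the genome, ATG-(CAG)60-Myc-NLuc with 60 CAG units and ATG-(CAG)0-Myc-FLuc with 0. The labels give clone 37 as a high and clone 15 as a low expresser of both, and a single clone stands for each level, so the reporter level and other differences between the clones cannot be told apart. All 3 groups grew in the same serum-containing medium, and the labels do not say whether replicates were separate cultures, so p-values measure only the spread between these libraries.

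MAGE proteins share a conserved domain with which they bind RING-type E3 ubiquitin ligases and change what those ligases mark. The type I MAGE genes, to which the MAGEA and MAGEC families belong, are active in testis and placenta and are held silent in most other tissues by DNA methylation of their promoters, and many tumours and cell lines express them again. CSAG1 and CSAG3 are unrelated small genes whose starts lie back to back with MAGEA genes, and they are named for their discovery in chondrosarcoma.

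Gene counts on the transcript strand summed to 10334090 to 13902872 in the parental and clone 37 libraries, which were read at 75 bp, and to 18654063 to 38093340 in clone 15, which was read at 100 bp, so neither depth nor read length can be told apart from clone 15. Expression is given as counts and as CPM, the counts scaled to a library total of 1000000 gene counts. All 9 markers listed for HEK293T averaged at least 1 CPM in every group, although their summed level ranged from 848 to 918 CPM in clone 37, from 1350 to 1647 in parental and from 4114 to 4273 in clone 15. Of the germ cell markers, which name the tissue where MAGEA genes are normally active, SYCP1 had 0 counts throughout, DAZL at most 1, DDX4 at most 2 and SYCP3 at most 14 in a library, while TEX14 had 22 to 160. The summed level of those 5 markers ranged from 1.76 to 2.68 CPM in parental, from 3.19 to 4.86 in clone 37 and from 4.62 to 5.24 in clone 15, and TEX14 alone made up most of it, at 1.68 to 4.95 CPM. Leukocyte markers summed to at most 1.30 CPM and endothelial ones to at most 0.325. Fibroblast markers summed to 38.3 to 41.8 CPM in parental, 21.1 to 21.9 in clone 37 and 52.9 to 116 in clone 15. COL1A1 made up most of that sum, at 32.9 to 35.5, 18.4 to 20.7 and 48.3 to 108 CPM. LUM was lower in clone 15 (0.394 to 1.45 CPM) than in parental (1.73 to 2.41), and DCN and PDGFRA overlapped between those groups. The part of these markers in the results was not tested.

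The positions below are those of GENCODE 29 on GRCh38, the build that the submitters' processing notes name as hg38. A dense group lies between MAGEA3 (ENSG00000221867, chrX:152698752-152702347, plus strand) and MAGEA6 (ENSG00000197172, chrX:152766136-152769747, minus strand), whose starts are 71.0 kb apart. Within it CSAG1 (ENSG00000198930, chrX:152727484-152733735, minus) and MAGEA12 (ENSG00000213401, chrX:152733779-152737669, plus) start 44 bases apart, and MAGEA2 (ENSG00000268606, chrX:152749863-152753884, minus) and CSAG3 (ENSG00000268916, chrX:152753921-152760222, plus) start 37 bases apart. MAGEA10 (ENSG00000124260, chrX:152133310-152138578, minus) starts 560 kb before MAGEA3, and MAGEA1 (ENSG00000198681, chrX:153179285-153183880, plus) starts 410 kb beyond MAGEA6. MAGEA4 (ENSG00000147381, chrX:151912509-151925170, plus) and MAGEC1 (ENSG00000155495, chrX:141903894-141909388, plus) lie farther off, and their starts are 10.0 Mb from each other.

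The promoter sequences carried a shared feature of this group. RefSeq promoter windows of GRCh38.p14, which run from 250 bases before a gene's start to 50 after it, were matched for 8 of the 10 genes (MAGEA1 and MAGEA10 were not matched). The windows of MAGEA3 and MAGEA6 were identical over 300 of 300 bases. The longest run common to all windows of MAGEA2, MAGEA3, MAGEA6, MAGEA12, CSAG1 and CSAG3 had 24 bases, GGATGTGACGCCACTGACTTGCGC. It was defined from these 6 of the 8 genes, so its presence in them was fixed in advance. The run was on the gene's own strand in MAGEA2, MAGEA3, MAGEA6 and MAGEA12 and on the opposite strand in CSAG1 and CSAG3. The CSAG1 and CSAG3 windows overlap those of MAGEA12 and MAGEA2, and their runs are the same bases, not further copies. On either strand the 24-base run was present in 11 of 35116 promoter windows of all genes (0.0313%), some of which overlap each other. All 11 belonged to those 6 genes, MAGEA2B, MAGEA3-DT or MAGEA6-DT. Its last 11 bases, CTGACTTGCGC, are the longest run left in common when the MAGEA4 windows are added, so their presence there was also fixed. They were in 17 windows in all (0.0484%), 1 of which belonged to ABCA3, while MAGEC1 held neither run. The windows below are shown so that the shared letters and their surroundings can be compared between genes. The capitals mark the 24-base run in the MAGEA3, MAGEA12 and MAGEA2 windows and the 11-base run in the MAGEA4 window, each read 5′ to 3′ on the gene's strand.
MAGEA3, chrX:152698544-152698843, plus strand, the same letters as MAGEA6, chrX:152769640-152769939, minus strand: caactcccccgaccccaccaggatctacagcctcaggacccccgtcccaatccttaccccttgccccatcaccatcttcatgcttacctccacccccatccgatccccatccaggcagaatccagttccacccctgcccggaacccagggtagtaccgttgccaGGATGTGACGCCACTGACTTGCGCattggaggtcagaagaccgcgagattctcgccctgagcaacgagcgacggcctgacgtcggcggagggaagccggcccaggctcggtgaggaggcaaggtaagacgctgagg
MAGEA12, chrX:152733612-152733911, plus strand: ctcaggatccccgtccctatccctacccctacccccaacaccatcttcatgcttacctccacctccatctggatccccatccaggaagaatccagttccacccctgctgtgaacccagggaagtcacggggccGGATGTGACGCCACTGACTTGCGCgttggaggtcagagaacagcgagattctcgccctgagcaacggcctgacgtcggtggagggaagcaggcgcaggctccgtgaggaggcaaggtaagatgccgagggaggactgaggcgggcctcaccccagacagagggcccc
MAGEA2, chrX:152753793-152754092, minus strand: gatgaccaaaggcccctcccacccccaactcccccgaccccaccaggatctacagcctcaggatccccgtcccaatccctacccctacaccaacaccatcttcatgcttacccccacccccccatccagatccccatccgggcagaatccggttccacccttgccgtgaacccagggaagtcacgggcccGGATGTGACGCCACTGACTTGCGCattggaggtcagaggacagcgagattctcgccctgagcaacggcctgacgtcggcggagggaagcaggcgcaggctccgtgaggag
MAGEA4, chrX:151912639-151912938, plus strand: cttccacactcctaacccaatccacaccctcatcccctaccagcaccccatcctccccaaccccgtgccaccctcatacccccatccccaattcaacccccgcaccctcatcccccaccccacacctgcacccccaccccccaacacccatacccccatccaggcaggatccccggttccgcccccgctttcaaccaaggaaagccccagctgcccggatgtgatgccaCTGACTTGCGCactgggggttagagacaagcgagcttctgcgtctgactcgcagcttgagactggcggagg

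The run lay from base -86 to base -63 relative to the start in MAGEA3 and MAGEA6, from -117 to -94 in that MAGEA12 window and from -60 to -37 in that MAGEA2 window. The ETS core TTCCGG, a form of the letters bound by ETS factors, was searched on both strands. It was in windows of 2 of the 8 genes, MAGEA3 and MAGEA6, beside 17.2% of all windows, and other forms were not searched. The GC box core GGGCGG, the letters bound by SP1, was in windows of 2 of the 8, MAGEA4 and MAGEC1, beside 45.0% of all windows. CpG dinucleotides, the sites of DNA methylation, numbered 19 in the MAGEA3 and MAGEA6 windows, 20 in CSAG3, 16 in CSAG1 and 14 in MAGEC1, beside a median of 14 over all windows. Genes with several annotated starts had 15 and 9 in the MAGEA12 windows, 17 and 13 in those of MAGEA2 and 10, 11, 13, 15 and 15 in those of MAGEA4. The printed windows held 15 for MAGEA12, 17 for MAGEA2 and 11 for MAGEA4. These matches describe letters only.

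The copies decide how well each gene can be counted, because the deposited counts leave out reads that map to several places. Each gene's longest transcript was cut into all its words of 75 bases, and the share found in a gene elsewhere was 42.2% for MAGEA3 and 42.0% for MAGEA6. The words that MAGEA3 and MAGEA6 had in common made up 42.0% of either transcript. Those transcripts matched at 1738 of 1763 aligned positions (98.6%). MAGEA2 shared 99.1% of its words with MAGEA2B, which left 18 of 1951 words in no other gene, and CSAG3 shared 90.3% with CSAG2, which left 75 of 770. CSAG1 shared 4.05%, MAGEA4 0.647% and MAGEA12 0.178%, and MAGEA1, MAGEA10 and MAGEC1 shared none. Of the exonic bases of MAGEA10, 16.2% overlap a same-strand readthrough gene, whose reads cannot be assigned to either. With words of 100 bases, the read length of clone 15, the shared part of MAGEA3 and MAGEA6 was smaller, at 36.1% each.

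**Figure D1:**
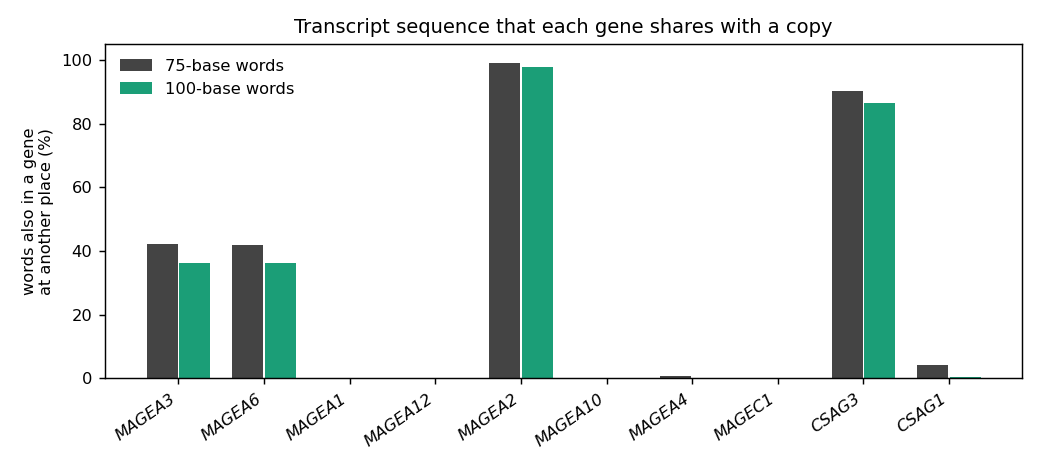
Percent of the words of each gene's longest transcript that also occur in a gene at another place (y axis, from 0), for words of 75 bases (dark bars) and 100 bases (green bars). MAGEA2 (99.1% with 75 bases) and CSAG3 (90.3%) stand highest, MAGEA3 and MAGEA6 stand at 42.2% and 42.0%, and the other genes are near 0.

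MAGEA3 and MAGEA6 had the highest parental levels of the 10 per kb of transcript, an order that changes when levels are divided by unshared words instead. Their products bind the ligase TRIM28 and direct it to the energy sensor AMPK. MAGEA3 had 121, 201 and 169 counts in the 3 parental libraries, 43, 40 and 50 with clone 37 and 0, 3 and 1 with clone 15. The 3 groups did not overlap, and clone 37 lay between the other groups. The mean was 12.9 ± 1.63 CPM for the parental group, 3.95 ± 0.091 for clone 37 and 0.058 ± 0.061 for clone 15 (SD, n = 3 each). Pooled counts gave a parental to clone 37 ratio of 3.29, with a 95% exact counting interval of 2.71 to 4.01, and a parental to clone 15 ratio of 264 (103 to 974). Such intervals cover counting error only, since reads carried no molecular identifiers. In bulk RNA, fewer expressing cells and less RNA in each cell cannot be told apart.

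MAGEA6 had 112, 190 and 169 counts in the parental libraries, 0 in every library of clone 37 and 1 in every library of clone 15. Its parental level of 12.3 ± 1.74 CPM (SD, n = 3) overlapped that of MAGEA3. In each clone 37 library 0 counts allow up to 3, a floor that averages 0.269 CPM, and against it MAGEA6 was at least 45.8-fold lower than in parental. In clone 15 the pooled ratio was 338 (115 to 1646). The near-identical pair thus had like counts in parental and unlike counts in clone 37. MAGEA3 held 51.9% and 51.4% of the MAGEA3 and MAGEA6 counts in parental replicates 1 and 2, the pair had equal counts in parental replicate 3, and MAGEA3 held 100% in all 3 libraries of clone 37, where the lower 95% exact binomial bounds were 91.8%, 91.2% and 92.9%. The numbers of 75-base words that are in no other gene were 976 for MAGEA3 and 979 for MAGEA6, so about as much of either gene could be counted. In clone 15 the pair had 1, 4 and 2 counts together, too few to give a share.

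A transcript runs away from the start of each of these genes on the opposite strand. They are MAGEA3-DT (RefSeq, GRCh38.p14, chrX:152554377-152698727) and MAGEA6-DT (chrX:152769741-152793476), both long noncoding RNAs, and they were singled out after their values were seen. MAGEA3-DT had 15, 10 and 15 counts in the parental libraries, 0 in every library of clone 37 and 0, 0 and 3 with clone 15. MAGEA6-DT had 4, 8 and 18 in the parental libraries, 5, 7 and 5 with clone 37 and 0 in every library of clone 15. In clone 37, then, MAGEA3 had counts where its divergent transcript had none, and MAGEA6 had none where its divergent transcript had counts. MAGEA3-DT was at least 4.03-fold lower in clone 37 than in parental, and the parental to clone 37 ratio of MAGEA6-DT was 1.57 (0.839 to 3.04), an interval that includes no difference. How far these transcripts share sequence with each other was not examined, so the assignment of reads between them is uncertain.

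**Figure D2:**
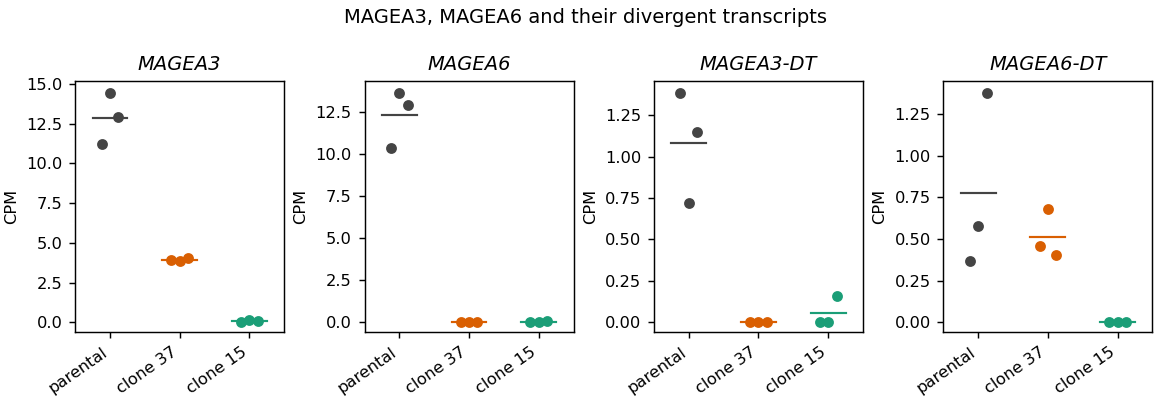
CPM (y axis, linear, a scale of its own for each panel) of MAGEA3, MAGEA6, MAGEA3-DT and MAGEA6-DT in parental (grey), clone 37 (orange) and clone 15 (green), with 1 point per library and a line at the mean of 3. Clone 37 has points above 0 for MAGEA3 and MAGEA6-DT and all 3 points at 0 for MAGEA6 and MAGEA3-DT.

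MAGEA1, a long-studied tumour antigen recognised by T cells, had 85, 112 and 85 counts in the parental libraries, 0 in every library of clone 37 and 1, 1 and 0 with clone 15. Its mean was 7.48 ± 0.845 CPM in parental (SD, n = 3). It was at least 27.8-fold lower in clone 37, and its pooled ratio to clone 15 was 304 (83.3 to 2520). MAGEA12 had 29, 32 and 29 counts in the parental libraries and 0 in all 6 clone libraries. Its parental mean of 2.40 ± 0.247 CPM (SD, n = 3) put it at least 8.93-fold lower in clone 37 and at least 19.9-fold lower in clone 15. Neither gene had a parental library that overlapped a clone library.

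MAGEA10 was scarce in all cells, with 7, 8 and 2 counts in the parental libraries, 1, 0 and 1 with clone 37 and 0, 1 and 0 with clone 15. Its parental mean was 0.459 ± 0.267 CPM (SD, n = 3), and the pooled ratios were 7.57 (1.80 to 67.5) to clone 37 and 36.6 (5.74 to 1530) to clone 15. MAGEA4 had 1 count in parental replicate 3, 1 in clone 15 replicate 2 and 0 elsewhere. MAGEA2 had 0 counts in all 9 libraries, and with 18 words of its own its absence from the counts does not measure its expression. MAGEA2B, its near-identical copy, had 1 count in parental replicate 2 and 0 elsewhere.

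CSAG1, whose product has been placed at centrosomes, had 13, 12 and 6 counts in the parental libraries, 0 in every library of clone 37 and 2, 0 and 0 with clone 15. It averaged 0.842 ± 0.372 CPM in parental (SD, n = 3), at least 3.13-fold above clone 37 and 33.4-fold above clone 15 by pooled counts (8.50 to 288). CSAG3 had 19, 21 and 20 counts in the parental libraries and 0 in all 6 clone libraries. Its parental mean of 1.60 ± 0.137 CPM (SD, n = 3) was at least 5.95-fold above clone 37 and at least 13.3-fold above clone 15. Its copy CSAG2 had 0 counts throughout, although 35 of its 770 words are in no other gene.

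MAGEC1, a MAGE gene with a long repeat region ahead of its conserved domain, had too few counts to show a pattern. It had 2, 0 and 0 counts in the parental libraries, 0, 2 and 1 with clone 37 and 2, 6 and 1 with clone 15. Its groups overlapped, and the intervals of its parental to clone ratios, 0.0496 to 5.18 for clone 37 and 0.0503 to 2.31 for clone 15, included no difference.

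**Figure D3:**
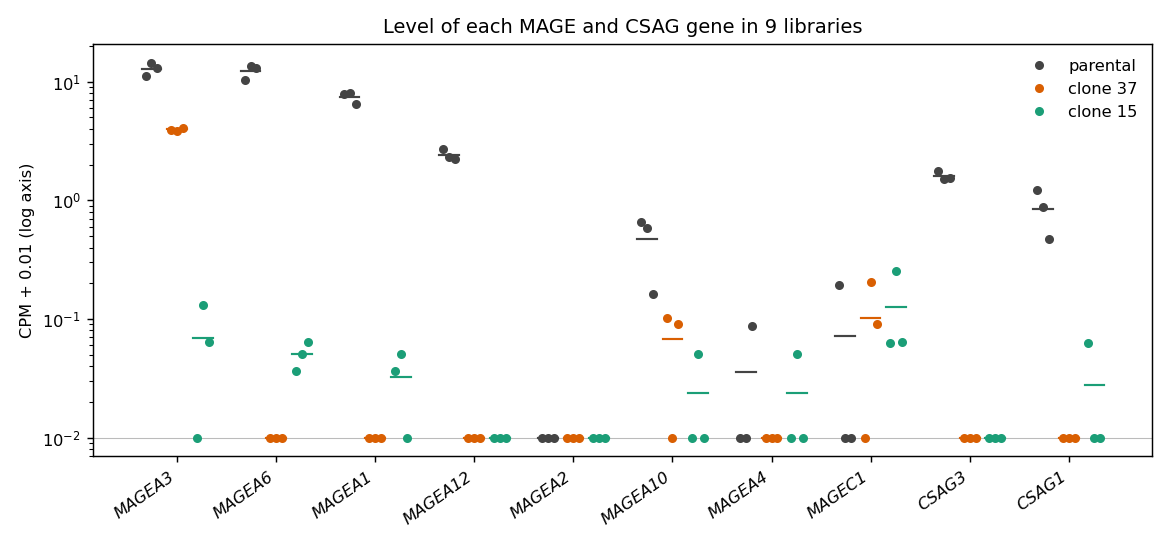
Level of each of the 10 genes as CPM + 0.01 on a log axis, with 1 point per library and a line at each group mean, for parental (grey), clone 37 (orange) and clone 15 (green). Points on the lowest line are libraries with 0 counts. In 7 genes every parental point lies above every clone point, and only MAGEA3 keeps clone 37 points above 1 CPM.

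Levels can be compared between genes only per length. As CPM per kb of the longest transcript, the parental order was MAGEA3 (7.30 ± 0.927), MAGEA6 (6.99 ± 0.985), MAGEA1 (4.37 ± 0.494), CSAG3 (1.90 ± 0.163), MAGEA12 (1.36 ± 0.140), CSAG1 (0.812 ± 0.359) and MAGEA10 (0.167 ± 0.097) (SD, n = 3 each), with MAGEA4, MAGEC1 and MAGEA2 at most 0.014. MAGEA3 and MAGEA6 overlapped each other, and the other neighbours in this order down to MAGEA10 did not overlap across the 3 libraries. Levels were also divided by the number of 75-base words of the longest transcript that are in no other gene. Per 1000 such words the parental level was 21.3 CPM for CSAG3, 13.2 for MAGEA3, 12.6 for MAGEA6, 4.57 for MAGEA1, 1.43 for MAGEA12 and 0.911 for CSAG1. The order thus depended on how shared sequence was treated, and CSAG3 moved from the fourth place to the top. For CSAG3 the divisor was 75 words of a transcript of 844 bases, while the gene has 1083 exonic bases and all its counts were used. Words were compared with annotated transcripts and not with the whole genome. That scale also treats a pair of reads as a single word, so it is approximate and the place of CSAG3 is uncertain.

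Summed over the 10 genes, parental libraries held 35.9, 41.4 and 36.8 CPM, clone 37 libraries 4.02, 4.06 and 4.21, and clone 15 libraries 0.158, 0.528 and 0.161. MAGEA3 made up 33.7% ± 2.21 of these counts in the parental group and 96.4% ± 1.26 with clone 37 (SD, n = 3 each). Of the 10 genes 1 had 0 counts in all 3 parental libraries, 7 had 0 counts throughout clone 37 and 3 throughout clone 15, where libraries were deeper. In each clone 7 of the 10 genes, all but MAGEA2, MAGEA4 and MAGEC1, had every clone library below every parental library. The same held for 15.4% of the 35978 genes with a count in clone 37 and 15.6% in clone 15, and as the genes were chosen on this contrast the counts are a description. In each clone 5 of the 10 genes (MAGEA1, MAGEA3, MAGEA6, MAGEA12 and CSAG3) had enough counts to enter the test across all genes, and in that test 27.3% of 16501 genes were called lower and 26.7% higher in clone 37. In clone 15 26.2% of 17703 genes were called lower and 25.1% higher.

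The threshold of near absence can be placed among all genes. Of 15704 genes with a parental mean of at least 1 CPM, 46 (0.293%) had a mean CPM that was 0 or under a 16th of the parental mean in clone 37, 55 (0.35%) in clone 15 and 24 (0.153%) in both. Of the 24, 14 were annotated as protein-coding and 8 as lying on chromosome X in GENCODE 29, which holds no entry for 3, among them MAGEA3-DT, placed on the X by RefSeq. MAGEA1, MAGEA6, MAGEA12 and CSAG3 were 4 of the 24. With groups at 0 set to the floor of 3 counts per library, the numbers were 32 genes in clone 37, 50 in clone 15 and 12 in both, and the 12 held 2 of the 10 genes, MAGEA1 and MAGEA6. The bounds of MAGEA12 in clone 37 and of CSAG3 in both clones, given above, are under 16-fold. MAGEA3, the only other of the 10 genes with a parental mean of at least 1 CPM, fell outside the 24 because of clone 37, where its mean was 3.26-fold lower. CSAG1, at 0.842 CPM in parental, was just under that minimum.

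Between the clones, MAGEA3 had more counts in clone 37. Its levels in the clones were part of the choice of the genes, and it entered the fit through its clone 37 counts, so the difference is given as a description with no test. The 43, 40 and 50 counts with clone 37 stood against 0, 3 and 1 with clone 15, although every clone 15 library was deeper. The fitted log2 fold change was 6.14 ± 0.46 (SE, n = 3 per group), and the pooled counts gave a ratio of 80.4 (30.7 to 300). Among 17712 genes tested 28.7% were called higher and 29% lower in clone 37. Of the 10 genes, MAGEA3 alone had enough counts in the clones to enter that fit, so no difference between the clones can be read for the others.

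Other type I MAGE genes had few or no counts in these cells. Of 19 listed, 8 had 0 counts in all libraries and 1, MAGEB2, had enough counts to be tested. MAGEB2, a type I gene on the short arm of the X whose product represses the stress granule protein G3BP1, had 40, 58 and 38 counts in the parental libraries, 27, 32 and 30 with clone 37 and 0 in every library of clone 15. Its parental and clone 37 libraries overlapped, with a log2 fold change of -0.47 ± 0.23 and an adjusted edgeR p of 0.0952. For that comparison 0 of 1 gene was called with edgeR or DESeq2, and 0 had an unadjusted p under 0.05, although MAGEB2 was called without parental replicate 3 (-0.65). In clone 15 it was at least 29.8-fold below parental and at least 22.1-fold below clone 37, which are descriptions, as it entered those fits through the group with counts. Clone 37 thus kept counts of MAGEA3 and MAGEB2 where clone 15 had few or none. MAGEC2, which binds TRIM28 as well, had 9, 6 and 14 counts in the parental libraries, 0 in every library of clone 37 and 3, 5 and 2 with clone 15, and was singled out after its values were seen. It was at least 2.89-fold lower in clone 37, and its pooled ratio to clone 15 was 6.25 (2.96 to 14.4). Also scarce, MAGEB6 had 3, 3 and 5 counts in the parental libraries, 5, 4 and 7 with clone 37 and 30, 16 and 6 with clone 15, and in CPM its clone 37 libraries were all above parental while those of clone 15 overlapped it. MAGEB18 had 1, 2 and 2 in the parental libraries, 2, 0 and 1 with clone 37 and 8, 11 and 5 with clone 15, where all were above parental in CPM. Both were named after their values were seen, and neither entered the fits.

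The type II MAGE genes are expressed in many tissues, and of 11 listed 7 were tested. In clone 37 2 rose, 3 fell and 2 were not called, with a median log2 fold change of -0.17 beside 0.02 over all genes tested. In clone 15 1 rose, 1 fell and 5 were not called, with a median of -0.08 beside 0.02. Over all genes tested 26.7% rose and 27.3% fell in clone 37, and 25.1% rose and 26.2% fell in clone 15. MAGEL2, an imprinted partner of TRIM27 in endosome recycling, had 8, 6 and 6 counts in the parental libraries, 20, 16 and 22 with clone 37 and 82, 43 and 37 with clone 15. Its log2 fold change was 1.65 ± 0.36 in clone 37 and 1.85 ± 0.35 in clone 15 (SE, n = 3 per group), and as it entered the fits through its clone counts no p is given, although it is among the genes counted as risen. MAGEH1 had 87, 124 and 98 counts in the parental libraries, 59, 50 and 76 with clone 37 and 151, 90 and 61 with clone 15. Scaled to depth it fell by 0.60 on the log2 scale in clone 37 (adjusted p 0.00411) and fell by 1.19 in clone 15 (3.7e-06).

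Of 68 other cancer-testis antigens listed, 30 had 0 counts in all libraries and 6 were tested in each comparison. In each clone 3 rose, 2 fell and 1 was not called, and the median log2 fold changes were 0.15 in clone 37 and 0.18 in clone 15, beside 0.02 over all genes in either. Of all genes tested 26.7% rose and 27.3% fell in clone 37, and 25.1% and 26.2% in clone 15. PRAME, a cancer-testis antigen that serves as a receptor of a cullin ubiquitin ligase, fell by 0.81 on the log2 scale in clone 37 (adjusted edgeR p 8.82e-09) and rose by 0.32 in clone 15 (0.00151). LIN28B, which blocks the maturation of let-7 microRNAs, rose by 0.73 in clone 37 (4.74e-08), and its log2 fold change in clone 15 was 0.15 (0.129), which was called without clone 15 replicate 2 (0.20) or parental replicate 2 (0.23). SAGE1, an X-linked antigen singled out after its values were seen, had 13, 21 and 14 counts in the parental libraries, 0 in every library of clone 37 and 2, 3 and 4 with clone 15. SAGE1 is among the genes counted as fallen, and as it entered the fits through its parental counts no p is given. In the same way CAGE1, counted as risen in clone 37, and CTCFL, counted as risen in clone 15, entered those fits through their clone counts.

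Genes whose products work with MAGE proteins, or are marked through them, were tested in 16 of 18 cases. In clone 37 5 rose, 6 fell and 5 were not called, and in clone 15 3 rose, 7 fell and 6 were not called, with median log2 fold changes of -0.03 and -0.09 beside 0.02 over all genes in either clone. The shares over all genes were 26.7% risen and 27.3% fallen in clone 37 and 25.1% and 26.2% in clone 15. TRIM28, the ligase bound by MAGEA3 and MAGEA6, had 4615 to 6556 counts in parental, 3871 to 4627 in clone 37 and 10371 to 20399 in clone 15. Its log2 fold change was -0.29 ± 0.063 in clone 37 (adjusted edgeR p 0.000721) and 0.30 ± 0.091 in clone 15 (0.00758). TRIM27, the ligase bound by MAGEL2, rose by 0.71 in clone 37 (1.1e-08) and by 0.21 in clone 15 (0.0238). The clone 15 call was lost without parental replicate 1 (0.17) or 3 (0.22). TRIM28 was named for its role beside MAGEA3 and after its values were seen.

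Regulators known to act at MAGEA promoters were tested in 23 of 25 cases in clone 37 and in 24 in clone 15. In clone 37 6 rose, 9 fell and 8 were not called, and in clone 15 8 rose, 5 fell and 11 were not called, with median log2 fold changes of 0.05 and -0.04 beside 0.02 over all genes. For all genes tested 26.7% rose and 27.3% fell in clone 37, and 25.1% and 26.2% in clone 15. CTCFL, counted as risen in clone 15, entered that fit through its clone 15 counts (73, 25 and 18, beside 6, 8 and 7 in parental). DNMT3A, which sets new DNA methylation, fell by 1.01 on the log2 scale in clone 37 (adjusted edgeR p 2.94e-10) and fell by 1.07 in clone 15 (7.76e-11). DNMT3B, which also sets new methylation, rose by 0.54 in clone 37 (4.18e-06) and by 0.68 in clone 15 (1.83e-07). UHRF1, which brings the maintenance methylase DNMT1 to newly copied DNA, rose by 0.30 (0.000789) and by 0.48 (3.48e-05). DNMT3B and UHRF1 were named after their values were seen. ETS1, a factor of the ETS core searched above, had 166, 238 and 196 counts in the parental libraries and 96, 95 and 102 with clone 37, and fell by 0.89 there (6.46e-06). In clone 15 its log2 fold change was 0.07 (0.647). No DNA methylation was measured in these libraries, and any part of these genes in the MAGEA levels was not tested.

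**Figure D4:**
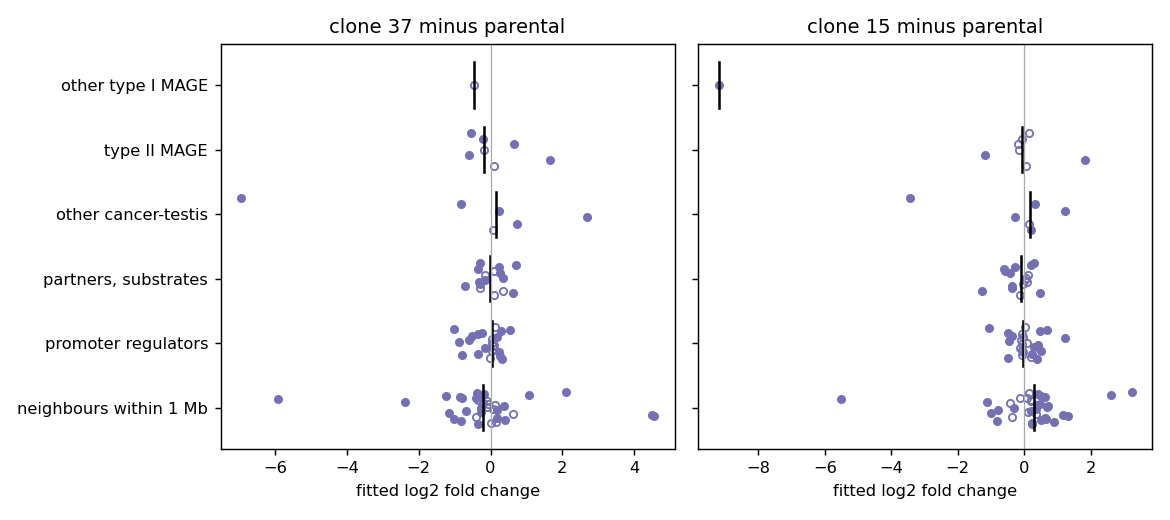
Fitted log2 fold change from parental (x axis) of each tested gene in 6 lists of genes outside the 10, for clone 37 (left) and clone 15 (right). Filled points passed the adjusted p threshold of 0.05, open points did not, and black lines are medians, which lie between -0.20 and 0.30 in 5 lists. The only tested gene of the remaining list, MAGEB2, stands at -0.47 in clone 37 and -9.18 in clone 15, a fitted value that depends on the fit's prior count because clone 15 had 0 counts.

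Within 1 Mb of the start of any of the 10 genes but MAGEC1, the distant MAGEA4 included, 93 other genes are annotated and 34 were tested. In clone 37 8 rose, 15 fell and 11 were not called, with a median log2 fold change of -0.20 beside -0.10 for the 570 tested genes of chromosome X. In clone 15 19 rose, 6 fell and 9 were not called, with a median of 0.30 beside -0.01 for 607. GABRA3 and ATP2B3, counted as fallen in both clones, entered the fits through their parental counts. On chromosome X as a whole 116 rose and 219 fell in clone 37, and 147 rose and 176 fell in clone 15, beside 26.7% risen and 27.3% fallen of all genes in clone 37 and 25.1% and 26.2% in clone 15. GABRQ, a subunit of GABA receptors that starts 60.6 kb from MAGEA3, the nearest of the 10 genes, had 7, 17 and 11 counts in the parental libraries, 41, 40 and 57 with clone 37 and 332, 265 and 139 with clone 15. Its log2 fold change was 2.11 ± 0.28 in clone 37 and 3.24 ± 0.25 in clone 15 (SE, n = 3 per group). It too entered the fits through its clone counts, so no p is given, although it is counted as risen. GABRE, another subunit, whose start is 62.2 kb from that of MAGEA4 and lies far from the dense group, rose by 1.08 in clone 37 (adjusted edgeR p 0.000173) and by 2.62 in clone 15 (3.53e-14).

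CETN2, a centrin of the centriole 61.0 kb from MAGEA6, fell by 0.39 on the log2 scale in clone 37 (adjusted edgeR p 0.00269), and its log2 fold change in clone 15 was 0.13 (0.311), which was called without parental replicate 2 (0.25). NSDHL, a sterol synthesis enzyme 61.2 kb from MAGEA6, fell by 0.19 in clone 37 (0.0417) and rose by 0.42 in clone 15 (0.000492), and the clone 37 call was lost with DESeq2 (-0.20) and without any of the clone 37 replicates or parental replicate 2 (-0.22 to -0.15). PNMA6A, 107 kb from MAGEA1, fell by 1.23 in clone 37 (0.000194) and rose by 0.51 in clone 15 (0.0477), where its libraries overlapped parental and the call was lost without clone 15 replicate 2 (0.25) or 3 (0.59) or any of the parental replicates (0.37 to 0.58). PNMA3, 123 kb from MAGEA1, fell by 0.86 in clone 37 (0.00186) and rose by 0.64 in clone 15 (0.00431).

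**Figure D5:**
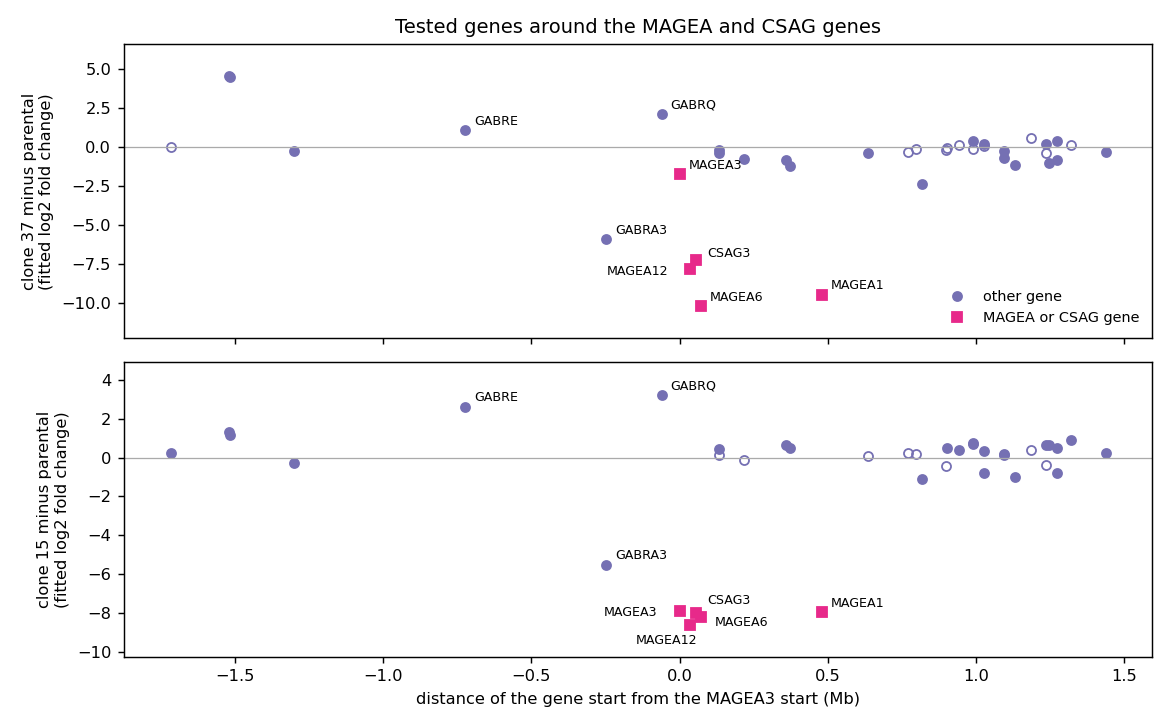
Fitted log2 fold change from parental (y axis) of every tested gene in that window by the distance of its start from that of MAGEA3 in Mb (x axis), for clone 37 (top) and clone 15 (bottom). Squares are MAGEA or CSAG genes, shown without a test, and their fitted values depend on the fit's prior count where a group had 0 counts. Circles are other genes, filled where the adjusted p was under 0.05. GABRQ lies above 0 at 2.11 and 3.24 beside the squares, and GABRA3 lies below 0 with them.

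Across the 9 libraries, the genes most like the average of the 5 genes with a parental mean of at least 1 CPM were ranked among 12947 protein-coding genes by Euclidean distance of log2(CPM + 0.5), each centred on its parental mean. The closest was GABRA3 (chrX:152166234-152451358), a GABA receptor subunit that starts 247 kb from MAGEA3, at a distance of 1.03. It had 46, 66 and 45 counts in the parental libraries, 1, 0 and 1 with clone 37 and 2, 4 and 1 with clone 15. GABRA3 thus lay far below parental in both clones while GABRQ and GABRE, on either side of it and encoding subunits of the same receptor class, were above. GTSF1 on chromosome 12, which acts in the piRNA pathway of germ cells, was next at 1.33, with 67, 86 and 76 counts in the parental libraries and 0 in all 6 clone libraries. HTR2C on chromosome X (1.38), a serotonin receptor, MKRN3 on chromosome 15 (1.49), an imprinted ubiquitin ligase, RIOX1 on chromosome 14 (1.75), a ribosomal oxygenase, and BRINP3 on chromosome 1 (1.91) completed the 6. With an offset of 0.1 or of 1 in place of 0.5, 4 of these 6 genes were again among the closest 6.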

How the data were processed

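Total RNA was depleted of ribosomal RNA and made into directional libraries, per the labels' protocols, and was sequenced as paired ends. The authors deposited raw counts per gene, 1 file per library, in the layout of STAR's gene counts, which leave out multimapping reads. The submitters' processing notes name STAR 2.7.10a, FastQC 0.11.9 and hg38. The annotation release, trimming and filters are not given in the sources used here. Column 4 was used, which held 92.6% to 94.0% of stranded gene counts. Of 20015841 to 69405665 read pairs per library, 4.59% to 14.0% mapped to several places. The 4 summary entries that name no gene stayed out of all totals.

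Of 60683 gene IDs, 60370 had a symbol in the name table and 58496 matched GENCODE 29. After filterByExpr and TMM scaling, edgeR 4.0.16 in R 4.3.3 tested each comparison on its 6 libraries (robust glmQLFit, glmQLFTest). Benjamini-Hochberg adjustment ran over all genes tested, with calls at 0.05. Groups at 0 were bounded with a floor of 3 counts per library, and ratios of pooled counts carry 95% exact binomial counting intervals. Transcripts were aligned with edlib 1.3.9.post1. Python 3.11.15 with scipy 1.17.1 was used for the rest.

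The 10 genes, the gene lists and the tests were chosen with earlier results of these data known. Named genes were the 10, the 2 most changed called genes of each list (mean of at least 1 CPM, groups apart), the 6 nearest tested protein-coding neighbours and the 6 most similar genes. A part of what this rule gave is not reported here. The alternatives tried were DESeq2 1.42.0 (Wald test), scaling by RLE size factors, other filters, unstranded counts, 1 fit of all 9 libraries, the replicate number as a block, libraries thinned to the smallest total, other windows and word lengths, and leaving out each replicate. Replicates differed by more than counting noise (chi-square per gene 1.89 to 13.2), so none was taken as a copy.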

Additional observations from a re-analysis of the deposited data

Results flagged for a closer look

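In 4 genes outside the 10, PRAME, NSDHL, PNMA6A and PNMA3, the clones differed (edgeR, adjusted p under 0.05, clone 37 minus clone 15, 3 libraries each). The 4 were flagged because they were also called against parental in both clones, in opposite directions. TRIM28 (-0.59), named apart from the rule, met the same terms. Other named genes, such as GABRE (-1.54) and LIN28B (0.57), were called between the clones as well. Of 17712 genes tested 28.7% were called higher and 29% lower in clone 37. MAGEA3 had a log2 fold change of 6.14 between the clones, with 43, 40 and 50 counts against 0, 3 and 1, which is a description, as its clone levels were part of the choice of the genes. MAGEB2 had a fitted value of 8.67, with 27, 32 and 30 counts against 0 in each clone 15 library. The excess in clone 37, of 22.1-fold or more, is also a description, since MAGEB2 entered the fit through clone 37 and the fitted value depends on the fit's prior count. PRAME differed by -1.13, and it was below parental in clone 37 and above it in clone 15. The neighbours NSDHL (-0.61), PNMA6A (-1.74) and PNMA3 (-1.50) were also called lower in clone 37 and higher in clone 15 than in parental. Of these calls, that of PNMA6A in clone 15, where its libraries overlapped parental, was lost in 5 of the 6 fits without a replicate, with DESeq2 and with unstranded counts, and that of NSDHL in clone 37 in 4 of 6, with DESeq2 and with the replicate block. Clone 15 was read deeper and at 100 bp, and the part of depth and read length in these differences cannot be told apart from that of the clone.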

How the results depend on the processing

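The 10 genes against parental gave the same count of genes with every library lower, 7 in each clone, with unstranded counts, thinned libraries and each replicate left out, and the parental to clone 37 ratio of MAGEA3 was 3.06 to 3.47 without a replicate. Filter, test, replicate block and the fit of 9 libraries do not enter those counts, which do rest on scaling to library totals. Their values with RLE size factors are not reported here. The clone 37 to clone 15 log2 fold change of MAGEA3 was 5.30 to 7.31 without a replicate, 5.70 thinned and 6.31 with DESeq2, a description each time. The number of other type I MAGE genes past the threshold became 1 in clone 37 and 2 in clone 15 without a filter on low counts, and ranged from 0 to 1 and from 1 to 2 without a replicate. These numbers are a description, as MAGEB2, the gene tested, had 0 counts in clone 15, and nothing is read from their stability. Neighbours called became 42 (2 Mb) and 10 (0.5 Mb) in clone 37 and 41 and 9 in clone 15, since the windows hold other numbers of genes. Other cancer-testis antigens called in clone 15 became 3 with thinned libraries, where 4 were tested. The log2 fold change of ETS1 in clone 15, which was not called, was -0.0031 without clone 15 replicate 3 and ranged up to 0.21 without another replicate, and the cause was not tested. The clone 15 call of TRIM27 was lost with unstranded counts (0.15) and without a filter (0.20). Same-numbered libraries did not deviate together (correlations from -0.17 to 0.03), so the numbers were not taken to pair libraries. With the replicate block MAGEA3 between the clones was at 6.13 and the clone 37 call of NSDHL was lost (-0.19). With 0 counts in a library, a level below 3 counts was not detectable.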
